A study of Mus musculus with 10 samples.

Results

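The 43 genes described here encode the proteins that load, fire and run replication forks and the enzymes that make deoxynucleotides (dNTPs). They were taken by gene symbol for their roles in origin licensing, at the fork and in dNTP synthesis. No measured value was used to pick them, though earlier results of these data were known. They are 43 of the 24015 genes in the count table of a study of inhibitors in MAF9 cells. MAF9 cells are mouse bone marrow cells of C57BL/6 background transduced with the leukemia fusion gene MLL-AF9 and grown with interleukin-3 in serum. They were treated for 4 days with MM-401, which blocks the binding of WDR5 to MLL1, with EPZ5676 (labelled EPZ), an inhibitor of the histone methyltransferase DOT1L, with MI-2-2 (labelled MI or MI-2), which blocks the binding of MENIN to MLL1 and its fusions, with iBET, a bromodomain inhibitor, or with DMSO, the solvent control. Each inhibitor was used at its own IC50, so the doses were set by effect and not by concentration. RNA was sequenced from 2 libraries for each of the 5 conditions, 10 in all. The cells carry the fusion gene in every condition, DMSO included, and the labels name no clone and no untransduced control.

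DNA replication starts at origins that the origin recognition complex (ORC) marks. CDC6 and CDT1 load the ring-shaped MCM helicase there in G1 phase, and CDC45, the GINS complex and MCM10 turn it into a running helicase in S phase. Polymerase alpha with primase lays down primers, polymerases epsilon and delta extend them on the clamp PCNA, and ribonucleotide reductase, thymidylate synthase and thymidine kinase supply the building blocks. Many of these genes are transcribed at the start of S phase under control of the E2F factors, and cells that leave the cycle, as myeloid cells do on terminal differentiation, turn them down.

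The libraries held between 20394762 and 29473127 reads on genes, and each of the 43 genes had between 340 and 19470 reads in a library. The filter on low counts kept 12971 genes and all 43 of these. Levels are given as CPM, read counts divided by the TMM-scaled library total and set to a common total. Differences are log2 fold changes with their standard error (SE) from edgeR's quasi-likelihood test, and a gene is said to have risen or fallen where its p-value, adjusted by Benjamini-Hochberg over all genes tested, was below 0.05. The study's methods, in a passage that goes on to real-time PCR, describe the RNA of this treatment as coming from biological duplicates. The labels do not say whether the 2 libraries of a condition came from separate cultures. Where they did not, the p-values measure only technical spread between these samples. The 2 DMSO libraries differed in Y-linked genes and Xist, as given below. In bulk RNA, fewer cells in S phase and less RNA of these genes per cell cannot be told apart.

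The DMSO libraries stood apart from each other. DMSO replicate 2 held 3630 reads on Y-linked genes, where the other 9 libraries held between 0 and 2, and its Xist level was 4.76 CPM against 928 to 3051 CPM in the others. In these genes only DMSO replicate 1 was like the 8 inhibitor libraries. What replicate 2 adds to a difference from DMSO therefore cannot be told apart from a difference in the origin of the cells. Of the tested genes above a low mean CPM cut, applied within each condition, 14.5% were more than 2-fold apart between the DMSO libraries. Within the inhibitor conditions the share was 0.999% to 3.56%. Among the 43 genes, Orc2 (2.73-fold), Tyms (2.19-fold) and Mcm3 (2.15-fold) passed 2-fold, each higher in replicate 2, and the median difference between the DMSO libraries was 0.30 on the log2 scale beside -0.01 over all genes. No member was more than 2-fold apart within any inhibitor condition. Median log2 fold changes against DMSO are therefore given also without each DMSO library, and the loss of single calls is named. The values of the promoter groups, cell type markers and wider pathway lists rest on both DMSO libraries. In addition, the inhibitors were compared with each other in a second fit that holds the 8 inhibitor libraries and no DMSO.

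Summed over the 43 genes, the level was 6173 and 8469 CPM in the DMSO libraries, 6461 and 6835 with MM-401, and 5811 and 6356 with iBET. It was 4428 and 4789 CPM with EPZ5676, and 3881 and 3913 with MI-2-2. The EPZ5676 and MI-2-2 sums lay below those of the other 6 libraries, and the MI-2-2 sums lay below those of EPZ5676. As a share of all reads the genes took 0.364% to 0.376% with MI-2-2, 0.430% to 0.433% with EPZ5676 and 0.601% to 0.867% in the other 3 conditions.

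**Figure D1:**
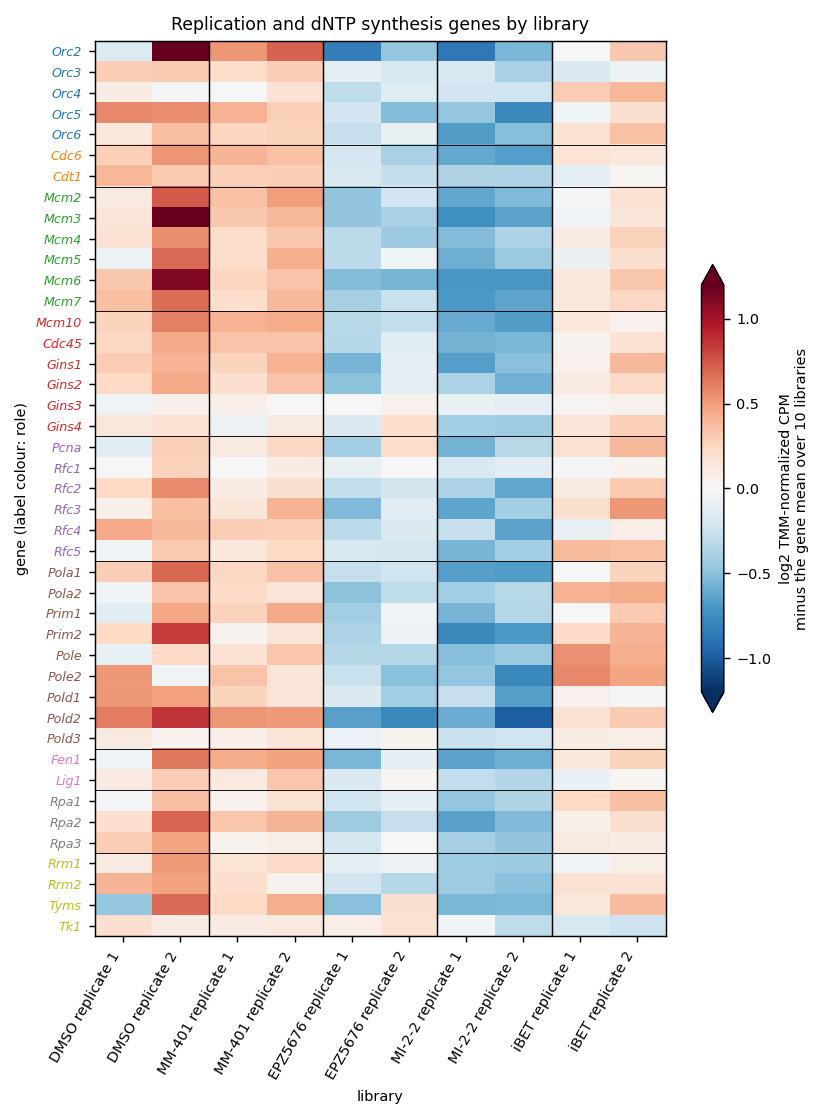
Level of each of the 43 genes (vertical axis, label colours mark the roles) in each of the 10 libraries (horizontal axis), as log2 TMM-normalized CPM minus the mean of the gene over the 10 libraries. Values beyond the ends of the colour scale take its end colours. The 4 columns of EPZ5676 and MI-2-2 are blue for most genes, while the row of Gins3 is near white throughout.

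Per kilobase of exon, levels differed widely among the genes. In the MM-401 libraries Mcm3 had the highest mean level at 157 CPM per kb, followed by Mcm5 (140.0 CPM per kb), Rrm1 (125 CPM per kb), Mcm6 (122 CPM per kb) and Rrm2 (114 CPM per kb). Thus subunits of the helicase and both ribonucleotide reductase subunits led the list. The lowest levels per kb were those of Gins3 (8.196 CPM per kb), Orc4 (11.6 CPM per kb) and Gins2 (13.4 CPM per kb). Exon lengths came from the GENCODE M21 annotation, which differs from the one the reads were counted on.

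The promoters of these genes are shown because E2F factors are known to bind several of them through an octamer. Windows from 250 bases before to 50 bases after the annotated start were taken from RefSeq (GRCm38.p6), which held an entry for 36 of the 43 genes (all but Mcm4, Gins1, Gins2, Gins4, Rfc2, Prim2 and Pole). The 4 octamers TTTGGCGC, TTTGCCGC, TTTCGCGC and TTTCCCGC were searched on both strands, overlapping matches included. At least 1 match was found for 14 of the 36 genes (38.9%), against 4.64% of the 9717 tested genes with an entry and 2.60% of all 27025 genes. Counted by window, 31.8% of 44 member windows held a match, against 3.83% of those of tested genes and 2.26% of all windows. The median GC content was 60.7% in the member windows and 60.3% in those of tested genes. The box CCAAT, in either orientation, was in the windows of 61.1% of the members and 43% of the tested genes. Of the windows, 5 are printed because they hold more than 1 octamer, and that of Gins3, with 1 octamer, because Gins3 passed in no comparison. Each reads 5′ to 3′ on the strand of the gene, and capitals mark the matches on either strand.
Mcm3 (chr1:20820263-20820562, minus strand): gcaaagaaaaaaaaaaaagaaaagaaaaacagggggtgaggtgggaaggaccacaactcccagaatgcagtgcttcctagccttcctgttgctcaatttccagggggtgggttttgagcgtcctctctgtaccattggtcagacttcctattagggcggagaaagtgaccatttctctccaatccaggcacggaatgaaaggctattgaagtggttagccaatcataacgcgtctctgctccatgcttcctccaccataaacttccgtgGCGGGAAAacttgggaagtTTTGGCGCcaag
Mcm6 (chr1:128359656-128359955, minus strand): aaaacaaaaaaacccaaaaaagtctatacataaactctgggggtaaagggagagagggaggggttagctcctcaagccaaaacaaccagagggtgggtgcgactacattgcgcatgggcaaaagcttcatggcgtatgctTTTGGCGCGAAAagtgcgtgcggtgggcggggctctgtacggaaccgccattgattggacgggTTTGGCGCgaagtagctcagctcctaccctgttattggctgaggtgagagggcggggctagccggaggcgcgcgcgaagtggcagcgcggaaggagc
Mcm7, the upstream of its RefSeq starts (chr5:138171834-138172133, minus strand): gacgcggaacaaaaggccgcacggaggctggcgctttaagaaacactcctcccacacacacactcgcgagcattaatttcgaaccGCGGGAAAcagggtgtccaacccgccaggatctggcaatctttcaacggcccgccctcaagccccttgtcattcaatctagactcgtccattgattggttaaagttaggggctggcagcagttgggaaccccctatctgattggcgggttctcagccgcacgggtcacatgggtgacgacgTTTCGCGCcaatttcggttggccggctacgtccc
Mcm5 (chr8:75109259-75109558, plus strand): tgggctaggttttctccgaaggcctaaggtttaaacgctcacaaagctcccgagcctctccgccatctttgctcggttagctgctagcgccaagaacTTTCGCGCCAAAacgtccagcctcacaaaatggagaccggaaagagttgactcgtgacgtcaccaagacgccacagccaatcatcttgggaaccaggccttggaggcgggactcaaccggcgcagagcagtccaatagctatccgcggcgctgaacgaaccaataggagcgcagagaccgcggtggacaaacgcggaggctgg
Rfc3 (chr5:151651159-151651458, minus strand): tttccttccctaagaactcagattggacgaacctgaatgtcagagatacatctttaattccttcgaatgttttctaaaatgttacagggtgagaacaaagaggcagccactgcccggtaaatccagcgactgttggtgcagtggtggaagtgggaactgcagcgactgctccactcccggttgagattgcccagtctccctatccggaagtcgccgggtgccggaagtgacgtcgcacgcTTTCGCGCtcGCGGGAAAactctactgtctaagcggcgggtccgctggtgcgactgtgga
Gins3 (chr8:95633309-95633608, plus strand): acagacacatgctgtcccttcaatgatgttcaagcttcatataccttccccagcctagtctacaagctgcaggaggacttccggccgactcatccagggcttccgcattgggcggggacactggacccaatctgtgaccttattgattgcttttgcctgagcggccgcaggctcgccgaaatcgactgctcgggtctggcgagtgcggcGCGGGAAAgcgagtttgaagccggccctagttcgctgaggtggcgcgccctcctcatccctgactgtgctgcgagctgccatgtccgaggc
In Mcm5 and at the first of the places in Mcm6, an octamer on either strand overlaps one on the opposite strand, so the capitals run on. The other genes with a match were Cdc6, Cdt1, Lig1, Orc3, Pola1, Pold1, Pold3 and Pole2, with 1 match each. A match is a run of letters and not a measured binding site.

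The comparison with DMSO asks which of the inhibitors changed the RNA of the replication genes. With EPZ5676, 27 of the 43 genes fell and none rose, where 19.4% of all 12971 genes tested fell and 18.7% rose. With MI-2-2, 36 fell and none rose, where 21.2% of all genes fell and 20.2% rose. The median log2 fold change of the 43 genes was -0.60 with EPZ5676 and -0.83 with MI-2-2, beside -0.06 and -0.05 over all genes tested. Both EPZ5676 libraries lay below both DMSO libraries for 36 genes (33.0% of all genes did so), and both MI-2-2 libraries did for all 43 (34.9% of all genes). No member lay above both DMSO libraries with either inhibitor, where 31.6% of all genes did so with EPZ5676 and 33.1% with MI-2-2. Pold2, a subunit of polymerase delta, had the lowest log2 fold change of the 43 under both inhibitors (2.74-fold lower with EPZ5676 and 2.87-fold lower with MI-2-2), and Gins3 the highest (0.02 and -0.10). Without DMSO replicate 2 the numbers that fell were 18 and 31, and without DMSO replicate 1 they were 35 and 39. The medians were -0.43 and -0.64 without DMSO replicate 2, and -0.73 and -0.94 without DMSO replicate 1. Without EPZ5676 replicate 1 the count for EPZ5676 was 14, without its replicate 2 it was 18, and without either MI-2-2 library the count for MI-2-2 was 24. When only the 4 libraries of a comparison were fitted, 1 gene fell with EPZ5676 and 9 with MI-2-2, where 9.34% and 9.12% of all genes passed in either direction. All these comparisons share the DMSO libraries.

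**Figure D2:**
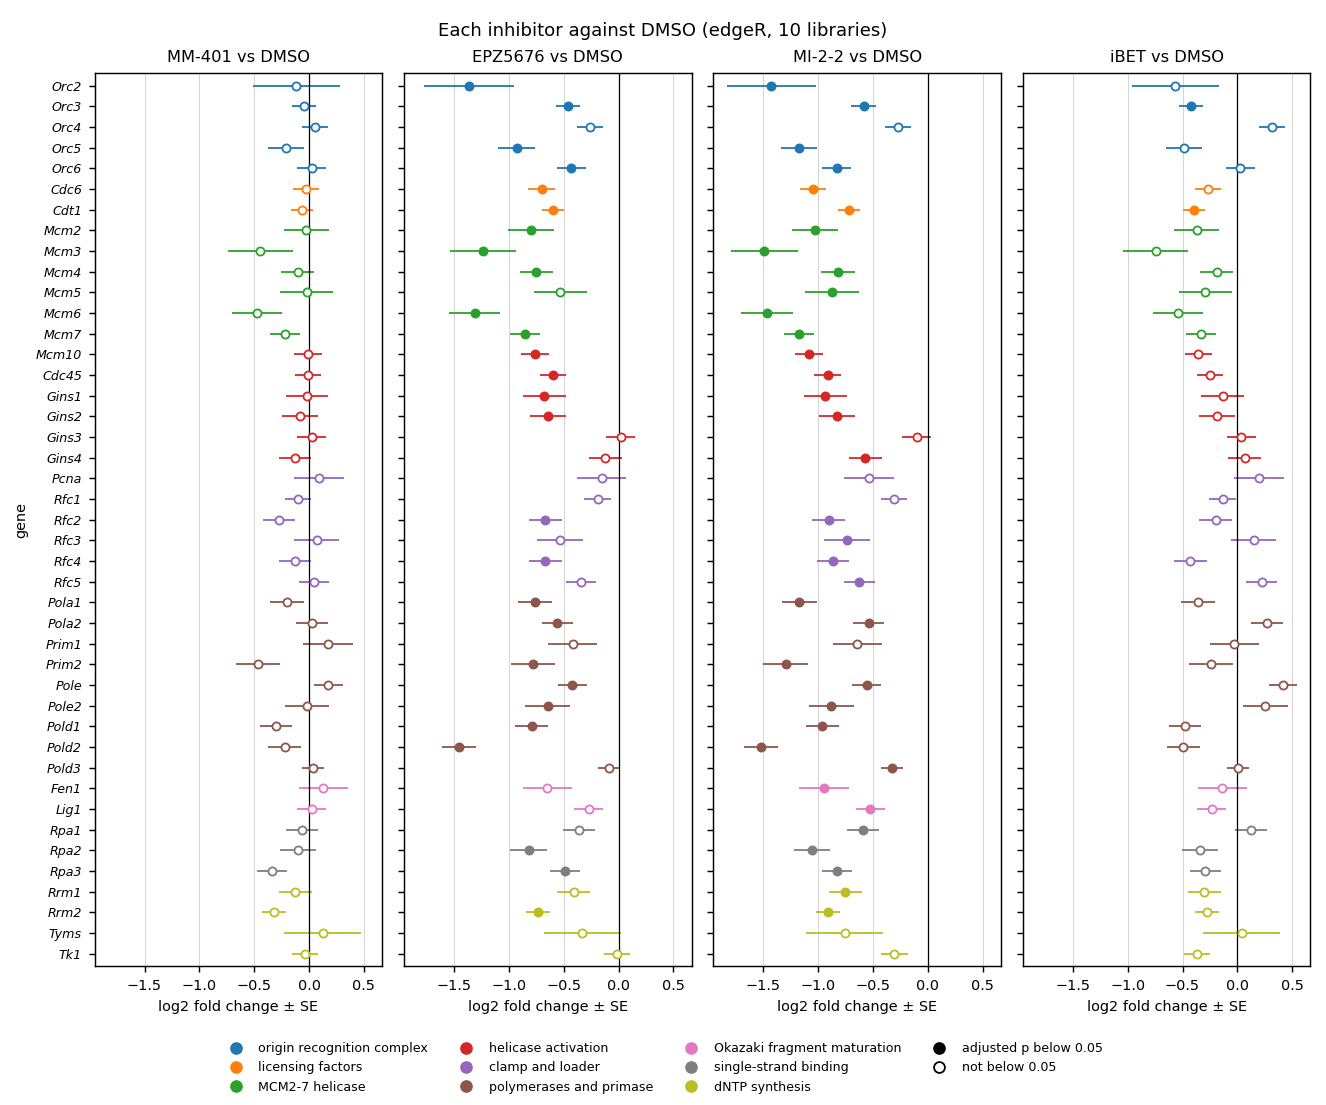
Log2 fold change with its standard error (horizontal axis) of each of the 43 genes (vertical axis) in 4 panels, each inhibitor against DMSO, from the fit of all 10 libraries. Filled points passed an adjusted p of 0.05 (none with MM-401, 27 with EPZ5676, 36 with MI-2-2, 2 with iBET), colours mark the roles, and the widest bars belong to genes such as Orc2 and Tyms whose DMSO libraries differed.

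Of the 5 ORC genes, which encode the subunits that sit on origins, 4 fell with EPZ5676 and the same 4 (Orc2, Orc3, Orc5 and Orc6) with MI-2-2. Orc5 was at 53.4 and 52.9 CPM in the DMSO libraries, 30.7 and 25.1 with EPZ5676, and 26.0 and 21.1 with MI-2-2. Its libraries did not overlap, and its log2 fold change was -0.93 (SE 0.17, adjusted p = 0.00437) with EPZ5676 and -1.18 (SE 0.17, adjusted p = 0.00172) with MI-2-2. Orc2 was at 52.8 and 145 CPM with DMSO, 33.7 and 43.2 with EPZ5676, and 32.9 and 40.6 with MI-2-2. The size of its fall rested on DMSO replicate 2, since its log2 fold change of -1.36 with EPZ5676 (SE 0.41, adjusted p = 0.0317) was -0.44 without that library (adjusted p = 0.127), and that of -1.43 with MI-2-2 (SE 0.41, adjusted p = 0.0247) was -0.49 (adjusted p = 0.0896). The log2 fold change of Orc6 was -0.83 with MI-2-2 and -0.43 with EPZ5676, the second call being lost without DMSO replicate 2. Orc4 did not pass with either inhibitor (log2 fold change -0.26 and -0.27, adjusted p = 0.119 and 0.103).

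Both licensing factors fell. Cdc6, whose product recruits the helicase to ORC, was at 90.7 and 108 CPM with DMSO, 64.8 and 57.1 with EPZ5676, and 48.7 and 47.2 with MI-2-2. Its log2 fold change was -0.70 (SE 0.12, adjusted p = 0.00373) and -1.05 (SE 0.12, adjusted p = 0.000914). Cdt1, the partner of CDC6 in loading, was at 132 and 125 CPM with DMSO, 88.0 and 82.5 with EPZ5676 and 78.4 and 77.8 with MI-2-2, a log2 fold change of -0.59 (SE 0.10, adjusted p = 0.00339) and -0.72 (SE 0.10, adjusted p = 0.00159). For both genes the DMSO libraries were close to each other, and both calls stood without either of them.

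The MCM genes, which encode the subunits of the helicase ring, had a median of -0.83 with EPZ5676 (5 of 6 fell) and -1.10 with MI-2-2 (6 of 6 fell). These medians were the lowest of the roles only with DMSO replicate 2 in the fit. Without it they were -0.54 and -0.72, above those of the licensing factors (-0.58 and -0.81). Their summed level was 2064 and 3465 CPM with DMSO, 1371 and 1477 with EPZ5676 and 1176 and 1248 with MI-2-2. Mcm3 was at 411 and 883 CPM with DMSO, 266 and 283 with EPZ5676, and 222 and 238 with MI-2-2. Both inhibitors were below both controls, and the controls differed from each other more than replicate 1 of DMSO differed from EPZ5676. The log2 fold change of Mcm3 was -1.24 (SE 0.30, adjusted p = 0.015) with EPZ5676 and -1.49 (SE 0.30, adjusted p = 0.00674) with MI-2-2, and without DMSO replicate 2 it was -0.56 and -0.80 (adjusted p = 0.0113 and 0.00264).

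Mcm6 was at 541 and 933 CPM with DMSO, 301 and 294 with EPZ5676, and 267 and 266 with MI-2-2. It fell by 1.31 on the log2 scale with EPZ5676 (SE 0.23, adjusted p = 0.00432) and by 1.47 with MI-2-2 (SE 0.23, adjusted p = 0.00262), and by 0.84 and 0.99 without DMSO replicate 2. Mcm7 was at 199 and 246 CPM with DMSO, 118 and 129 with EPZ5676, and 96.6 and 100.1 with MI-2-2. Its control libraries were closer, and its log2 fold change of -0.85 (SE 0.14, adjusted p = 0.00282) and -1.18 (SE 0.14, adjusted p = 0.000924) kept its call without either. Mcm2 (-0.80 and -1.03) and Mcm4 (-0.75 and -0.82) also fell with both inhibitors, Mcm2 with EPZ5676 not without DMSO replicate 2. Mcm5 fell with MI-2-2 (-0.87, adjusted p = 0.023, but 0.089 without DMSO replicate 2), and its log2 fold change with EPZ5676 was -0.53 (adjusted p = 0.118).

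**Figure D3:**
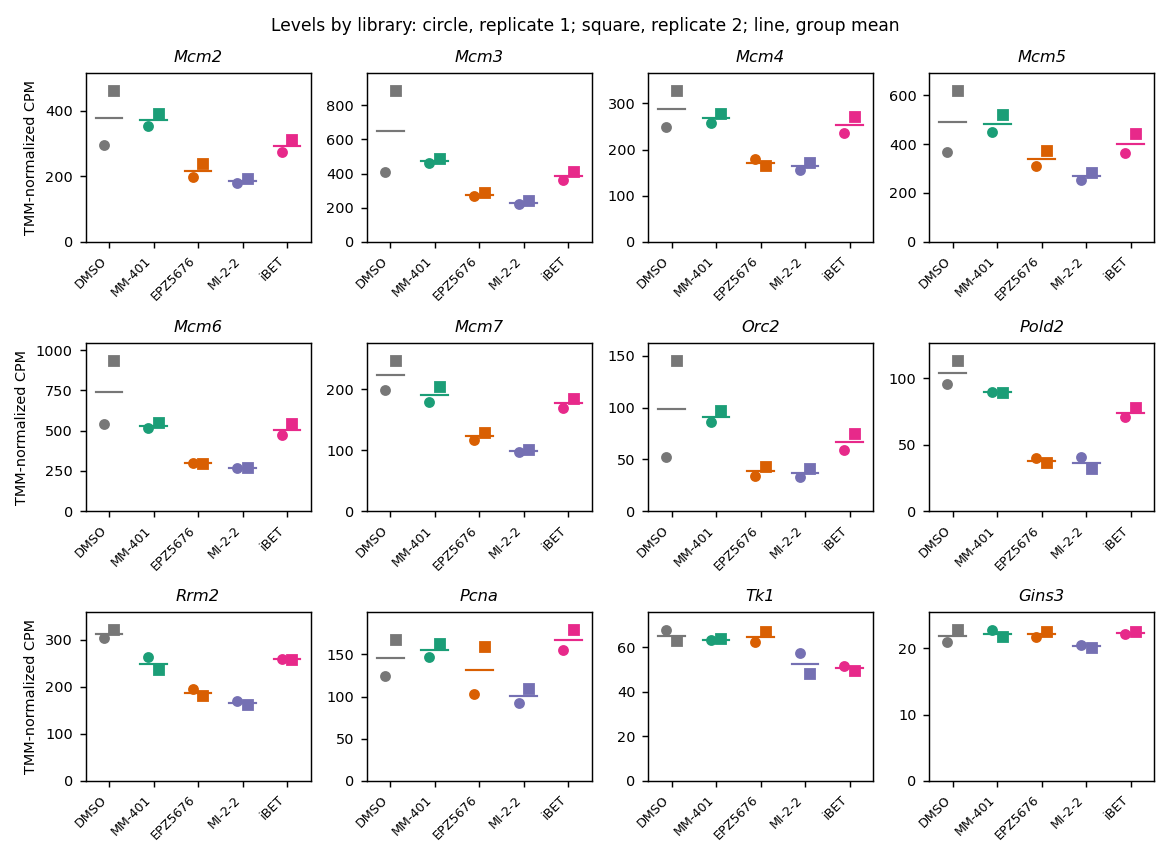
TMM-normalized CPM (vertical axes from 0) of 12 genes by condition (horizontal axis), with a circle for replicate 1, a square for replicate 2 and a line at the mean of the 2. The DMSO squares of Mcm3, Mcm6 and Orc2 stand far above the DMSO circles, the EPZ5676 and MI-2-2 points of the MCM genes other than Mcm5, of Orc2, Pold2 and Rrm2 lie below all other points, and Gins3 is level across the conditions.

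Among the helicase activators, Mcm10 and Cdc45 fell with both inhibitors. Mcm10, a scaffold of the starting fork, was at 129 and 164 CPM with DMSO, 85.2 and 87.3 with EPZ5676 and 70.4 and 67.4 with MI-2-2, a log2 fold change of -0.76 (SE 0.13, adjusted p = 0.00336) and -1.08 (SE 0.13, adjusted p = 0.000941). Cdc45, a subunit of the running helicase, was at 169 and 194 CPM with DMSO, 112 and 128 with EPZ5676 and 95.7 and 96.9 with MI-2-2, with log2 fold changes of -0.60 and -0.92. The 4 subunits of GINS, the ring that holds CDC45 on the helicase, gave different values. Gins1 (-0.67 and -0.94) and Gins2 (-0.65 and -0.83) fell with both inhibitors, though with EPZ5676 not without DMSO replicate 2. Gins4 fell with MI-2-2 (-0.57, adjusted p = 0.0174) and was at 41.0 and 53.5 CPM with EPZ5676 beside 50.6 and 52.1 with DMSO. Gins3 lay between 20.1 and 22.7 CPM in all 10 libraries and passed in none of the 10 comparisons.

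Of PCNA and the 5 subunits of its loader RFC, Rfc2 and Rfc4 fell with EPZ5676, and Rfc2, Rfc3, Rfc4 and Rfc5 with MI-2-2, Rfc3 not without DMSO replicate 2. Rfc4 was at 57.8 and 55.1 CPM with DMSO, 33.8 and 37.3 with EPZ5676 and 34.9 and 27.1 with MI-2-2, a log2 fold change of -0.67 (SE 0.15, adjusted p = 0.0106) and -0.87 (SE 0.15, adjusted p = 0.00353). Rfc1, the large subunit, was at 193 and 232 CPM with DMSO, 180 and 193 with EPZ5676 and 169 and 174 with MI-2-2, and did not pass (adjusted p = 0.24 and 0.0731). Pcna, the sliding clamp, was at 125 and 167 CPM with DMSO, 103 and 159 with EPZ5676 and 92.2 and 109 with MI-2-2. Its EPZ5676 libraries overlapped those of DMSO and its MI-2-2 libraries did not, and neither comparison passed (log2 fold change -0.15 and -0.54, adjusted p = 0.616 and 0.092).

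Of the 9 polymerase and primase genes, 7 fell with EPZ5676 and 8 with MI-2-2. Pold2, which bridges the subunits of polymerase delta, was at 95.4 and 113 CPM with DMSO, 39.8 and 36.4 with EPZ5676 and 41.2 and 31.4 with MI-2-2. It had the smallest adjusted p of the 43 genes in both comparisons, with a log2 fold change of -1.45 (SE 0.16, adjusted p = 0.000805) and -1.52 (SE 0.16, adjusted p = 0.000676), and without DMSO replicate 2 the values were -1.30 and -1.36. The catalytic subunit Pold1 was at 200.2 and 196 CPM with DMSO, 124 and 105 with EPZ5676 and 115 and 88.2 with MI-2-2 (log2 fold change -0.79 and -0.96). Pold3, another subunit of the same polymerase, differed by -0.09 with EPZ5676 (adjusted p = 0.498) and fell by 0.33 on the log2 scale with MI-2-2 (adjusted p = 0.0294, and 0.0504 without DMSO replicate 1). With EPZ5676 the subunits of polymerase delta therefore held both the lowest value of the 43 and 1 of those nearest 0.

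Pola1, the catalytic subunit of polymerase alpha, was at 97.0 and 128 CPM with DMSO, 65.2 and 67.0 with EPZ5676 and 50.02 and 49.7 with MI-2-2. Its log2 fold change was -0.77 (SE 0.15, adjusted p = 0.00713) and -1.17 (SE 0.16, adjusted p = 0.00138). Prim2, the large primase subunit, was at 57.5 and 86.4 CPM with DMSO, 37.6 and 46.2 with EPZ5676 and 28.4 and 30.1 with MI-2-2 (log2 fold change -0.78 and -1.30, the first not passing without DMSO replicate 2). Prim1, the catalytic primase subunit, did not pass (-0.42 and -0.64, adjusted p = 0.175 and 0.0515). Pola2 (-0.56 and -0.54), Pole (-0.42 and -0.56) and Pole2 (-0.65 and -0.88) fell with both. Without DMSO replicate 2, Pola2 was lost with both inhibitors and Pole with EPZ5676, and without DMSO replicate 1, where Pole2 was 1.48-fold higher than in replicate 2, Pole2 was lost with EPZ5676.

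Fen1, which trims the flaps of Okazaki fragments, and Lig1, which seals them, fell with MI-2-2 (log2 fold change -0.95 and -0.53, adjusted p = 0.0128 and 0.0154) and did not pass with EPZ5676 (-0.65 and -0.27, adjusted p = 0.0535 and 0.138). Fen1 was at 160 and 257 CPM with DMSO, 113 and 153 with EPZ5676 and 106 and 110 with MI-2-2. Without DMSO replicate 2 the log2 fold change of Fen1 with MI-2-2 was -0.53 (adjusted p = 0.0381) and the call of Lig1 was lost. Of the single-strand binding complex RPA, Rpa2 was at 99.6 and 141 CPM with DMSO, 64.6 and 71.5 with EPZ5676 and 55.2 and 60.1 with MI-2-2, and fell with both (-0.82, SE 0.17, adjusted p = 0.00713, and -1.06, SE 0.17, adjusted p = 0.00251). Rpa3 (-0.49 and -0.83) also fell with both, with EPZ5676 not without DMSO replicate 2 (-0.37, adjusted p = 0.0736), and Rpa1 with MI-2-2 (-0.59, adjusted p = 0.0147).

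The dNTP enzymes were divided. Rrm2, the small subunit of ribonucleotide reductase, was at 305 and 320 CPM with DMSO, 195 and 181 with EPZ5676 and 171 and 161 with MI-2-2. It had close replicates in every condition and fell by 0.73 (SE 0.11, adjusted p = 0.00228) and 0.91 (SE 0.11, adjusted p = 0.00102) on the log2 scale. Rrm1, the large subunit, was at 470 and 620 CPM with DMSO, 405 and 415 with EPZ5676 and 324 and 323 with MI-2-2, and fell with MI-2-2 (-0.75, adjusted p = 0.0059) while its value with EPZ5676 was -0.41 (adjusted p = 0.0595). Tyms, thymidylate synthase, was at 47.6 and 105 CPM in the DMSO libraries, so that the values of 46.2 and 74.9 with EPZ5676 and 44.9 and 45.02 with MI-2-2 did not pass (adjusted p = 0.484 and 0.12). Tk1, the salvage kinase of thymidine, lay between 62.4 and 67.7 CPM in the DMSO, MM-401 and EPZ5676 libraries and at 57.7 and 47.9 with MI-2-2 (adjusted p = 0.94 and 0.0754).

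Of the 14 genes with an E2F octamer in a promoter window, 9 fell with EPZ5676 and 13 with MI-2-2, with a median log2 fold change of -0.62 and -0.88. Of the 22 genes with an entry and no match, 12 and 16 fell, with a median of -0.52 and -0.83. Among all genes tested, 19.4% fell with EPZ5676 and 21.2% with MI-2-2. Genes with no match lacked only the exact octamers searched. Whether their windows hold E2F sites of other letters was not tested. Of the 5 genes whose windows hold more than 1 octamer, Mcm3, Mcm6 and Mcm7 fell with both inhibitors, and Mcm5 and Rfc3 fell with MI-2-2, though not without DMSO replicate 2, and did not pass with EPZ5676, while Gins3, with 1, passed with neither and Pold2, with none, fell most.

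Other genes moved in the same libraries. The 9 neutrophil granule genes listed (among them Camp, Ltf and Ngp) all rose with EPZ5676 and with MI-2-2, where 18.7% and 20.2% of all genes rose. With iBET 2 of the 9 fell, where 7.54% of all genes fell. Their summed level was 47655 to 60832 CPM with EPZ5676 and 42251 to 43163 with MI-2-2, against 657 to 3825 with DMSO. It was 4678 to 6017 with MM-401 and 499 to 1178 with iBET (CPM scaled by library totals). Of 9 monocyte or macrophage genes, 8 rose with EPZ5676 and 8 with MI-2-2, and with iBET 1 rose and 1 fell. Their sum was 5048 to 7669 CPM with EPZ5676 and MI-2-2, against 641 to 1608 in the other conditions. Of the 12 markers of myeloid progenitors and leukemia cells as labelled, 7 fell and 2 rose with each of EPZ5676 and MI-2-2. Of all genes, 19.4% and 21.2% fell. With iBET 2 of the 12 fell. Their sum was 3566 to 4521 CPM with EPZ5676 and MI-2-2, against 11919 to 15252 with DMSO. It was 12498 to 12738 CPM with MM-401 and 7435 to 8271 with iBET. The markers of B cells and of mast cells summed to at most 16.5 CPM in any library, with Ms4a1, Pax5, Fcer1a and Tpsb2 at 0 in all, and those of T or NK cells and of stroma reached 71.5 and 249.4 CPM in a DMSO library, with Cd3e, Col1a2, Col3a1 and Dcn at 0. Their part in the fall of the replication genes was not tested.

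EPZ5676 and MI-2-2 were compared directly in the fit of the 8 inhibitor libraries. No member passed in edgeR's quasi-likelihood test, where 0.413% of all genes were higher and 0.569% lower with EPZ5676. An unadjusted p below 0.05 was reached by 17 members, all higher with EPZ5676. Of the 12836 genes tested, 884 were higher and 874 lower at that unadjusted cut. The log2 fold change was above 0, that is, higher with EPZ5676, for 42 of the 43 genes, with a median of 0.24 beside -0.00 over all genes. Both EPZ5676 libraries lay above both MI-2-2 libraries for 28 genes (18.6% of all genes did so), and the reverse held for none (20.8% of all genes). Prim2 had the highest value, 0.52 (SE 0.12, adjusted p = 0.132), with 37.6 and 46.2 against 28.4 and 30.1 CPM, followed by Gins4 (0.45), Tyms (0.43), Pola1 (0.41) and Orc6 (0.41), and Pola2 was the only gene below 0 (-0.01). DESeq2 called Prim2 and Rrm1 (log2 fold change 0.52 and 0.34, adjusted p = 0.0409 and 0.0142 from DESeq2). With the replicate numbers added to the edgeR fit as a block, 7 members were higher, where 6.67% of all genes passed in either direction. The labels do not say what a replicate number marks.

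**Figure D4:**
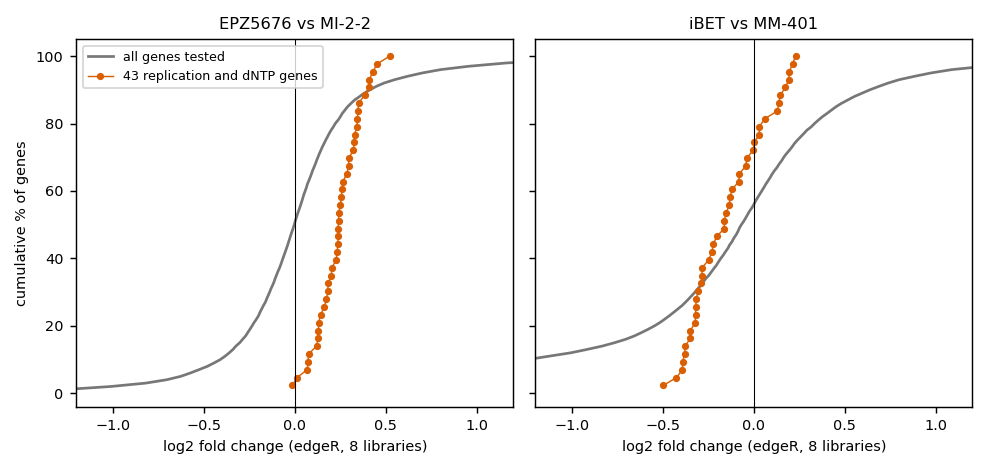
Cumulative percent of genes (vertical axis) by log2 fold change (horizontal axis) for EPZ5676 against MI-2-2 and iBET against MM-401, with all genes tested in grey and the 43 replication and dNTP genes in orange. In the first panel 42 of the 43 points lie right of 0, with a median of 0.24, and in the second the points straddle 0 with a median of -0.16.

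With MM-401 none of the 43 genes passed against DMSO in edgeR's quasi-likelihood test (0% of all genes did). An unadjusted p below 0.05 was reached by 3 members, Rrm2, Rpa3 and Prim2, all lower. Of the 12971 genes tested, 725 were lower and 725 higher at that unadjusted cut. Their log2 fold changes were -0.32, -0.34 and -0.46, with adjusted p = 0.352, 0.431 and 0.445. DESeq2 called no member. The median over the 43 genes was -0.04, beside -0.01 over all genes. It was 0.07 without DMSO replicate 2 and -0.17 without DMSO replicate 1. Both MM-401 libraries lay below both DMSO libraries for 10 genes and above them for none (17.8% and 19.5% of all genes). Mcm6, at 517 and 547 CPM with MM-401, lay near DMSO replicate 1 (541) and far below replicate 2 (933). Without DMSO replicate 1, Mcm3 (-0.89), Mcm6 (-0.81) and Prim2 (-0.72) passed, where 10.2% of all genes passed in either direction.

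With iBET, Cdt1 and Orc3 fell and no member rose, where 7.54% of all genes fell and 6.38% rose. Cdt1 was at 93.4 and 102 CPM against 132 and 125 with DMSO (log2 fold change -0.40, SE 0.10, adjusted p = 0.0376), and Orc3 at 119 and 128 against 165 and 166 CPM (-0.42, SE 0.11, adjusted p = 0.0432). Both calls were lost when either iBET library was left out, and that of Orc3 was at an adjusted p of 0.0534 without DMSO replicate 2. The genes with iBET did not all share a direction, though more were lower than higher. The log2 fold change was below 0 for 30 and above 0 for 13, with a median of -0.24 beside -0.04 over all genes. Both iBET libraries lay below both DMSO libraries for 20 genes (26.9% of all genes did so). They lay above them for 4, Orc4, Rfc5, Pola2 and Pole (27.7% of all genes). Pole, the catalytic subunit of polymerase epsilon, was at 163 and 151 CPM against 105 and 131 with DMSO (log2 fold change 0.42, adjusted p = 0.0712), and Pola2 at 108 and 111 CPM against 78.8 and 103 (0.27, adjusted p = 0.234). The result turned on the control library. Without DMSO replicate 1 the median log2 fold change of the 43 genes was -0.35, beside 0 over all genes. Values there included Mcm3 (-1.19), Mcm6 (-0.88) and Pole2 (0.57). Without DMSO replicate 2 the median was -0.03, beside -0.00 over all genes. Values there included Rfc5 (0.41), Pola2 (0.48), Pole (0.58) and Cdt1 (-0.44). More members were called in either fit than with both DMSO libraries, and the share of all genes called rose too.

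Against MM-401, with no DMSO library in the fit, 34 genes fell with EPZ5676 (25.0% of all genes fell) and 40 with MI-2-2 (26.2%). None rose, where 23.8% and 25.1% of all genes rose. The median log2 fold change was -0.56 and -0.77, beside -0.01 over all genes in each. Without MM-401 replicate 2 the median for EPZ5676 was -0.52. Orc2 was at 85.7 and 96.7 CPM with MM-401 and, at a log2 fold change of -1.27 (SE 0.17, adjusted p = 0.000825) and -1.34 (SE 0.17, adjusted p = 0.000629), had the lowest value of the 43 in both comparisons. Pold2, at 89.9 and 88.8 CPM with MM-401, followed with -1.25 (SE 0.15, adjusted p = 0.000536) and -1.32 (SE 0.15, adjusted p = 0.000414). Mcm3 was at 463 and 488 CPM with MM-401, and its log2 fold change was -0.81 (SE 0.10, adjusted p = 0.000708) and -1.07 (SE 0.10, adjusted p = 0.000241). Orc4 and Prim1, which passed against DMSO with neither inhibitor, passed here with both. Mcm5, Rfc3, Fen1 and Lig1 were among further genes that passed with EPZ5676 here but not against DMSO. Prim2 (-0.34, adjusted p = 0.0544) and Rpa3 (-0.17, adjusted p = 0.255), which fell against DMSO with EPZ5676, did not pass against MM-401. Tk1, Gins3 and Rfc1 passed with neither, and with MI-2-2 they were the only ones that did not.

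**Figure D5:**
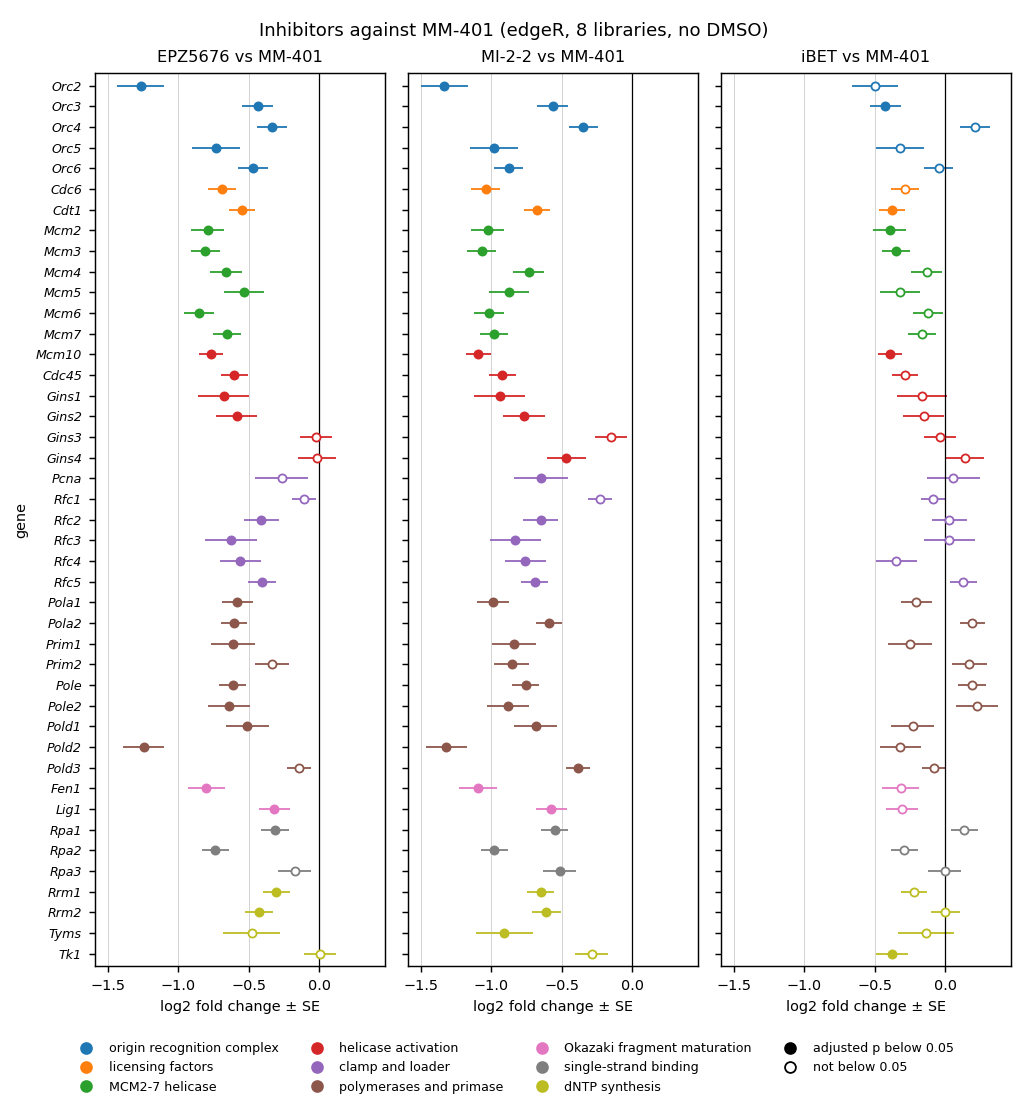
Log2 fold change with its standard error (horizontal axis) of each of the 43 genes (vertical axis) for EPZ5676, MI-2-2 and iBET against MM-401, from the fit of the 8 inhibitor libraries without DMSO. Filled points passed an adjusted p of 0.05 (34, 40 and 6 genes), and the bars of Orc2 and Mcm3 are shorter than in the comparisons with DMSO.

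Against iBET, 26 genes were lower with EPZ5676 (25.1% of all genes) and 38 with MI-2-2 (25.5% of all genes), with a median log2 fold change of -0.41 and -0.68. Pola2 and Pole had the smallest adjusted p in both comparisons, Pole with a log2 fold change of -0.81 (SE 0.10, adjusted p = 0.000481) and -0.95 (SE 0.10, adjusted p = 0.00024), at 88.1 and 87.9 CPM with EPZ5676 and 78.0 and 82.0 with MI-2-2. Tk1 was higher with EPZ5676 than with iBET (62.4 and 66.9 against 51.6 and 49.6 CPM, log2 fold change 0.38, adjusted p = 0.0256, where 26.2% of all genes were higher). Without iBET replicate 2 the median for EPZ5676 against iBET was -0.35, beside 0.01 over all genes. The call of Tk1 was lost without any 1 of the 4 libraries.

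Against MM-401, 6 genes were lower with iBET (14.7% of all genes) and none was higher (10.5% of all genes), namely Orc3, Cdt1, Mcm2, Mcm3, Mcm10 and Tk1. Mcm10 was at 117 and 111 CPM with iBET and 144 and 146 with MM-401 (log2 fold change -0.39, SE 0.09, adjusted p = 0.0158), and Tk1 at 51.6 and 49.6 against 63.1 and 63.9 CPM (-0.38, SE 0.12, adjusted p = 0.049). None of these 6 calls held without any 1 of the 4 libraries. The median over the 43 genes was -0.16, beside -0.07 over all genes.

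The wider pathways were read from 4 lists that share no gene with the 43. Of 17 genes of purine and pyrimidine ribonucleotide synthesis, 16 fell with EPZ5676 and 16 with MI-2-2 (94.1% in each, against 19.4% and 21.2% of all genes), with a median log2 fold change of -1.27 and -1.34. Among them, Prps1, which makes the ribose phosphate donor, fell by 1.65 (SE 0.16, adjusted p = 0.00063) and 1.42 (SE 0.16, adjusted p = 0.000873) on the log2 scale, and Dhodh, of pyrimidine synthesis, by 1.62 with EPZ5676 (SE 0.18, adjusted p = 0.000824). With iBET 2 of the 17 fell (11.8%, against 7.54% of all genes) and with MM-401 none passed. Of 18 other dNTP and thymidylate enzymes, 9 fell (50%) and 2 rose (11.1%) with EPZ5676, 10 fell (55.6%) and 2 rose (11.1%) with MI-2-2, and 3 fell (16.7%) with iBET. Dctd, dCMP deaminase, fell by 2.19 (SE 0.18, adjusted p = 0.000427), 1.96 (SE 0.18, adjusted p = 0.000562) and 1.06 (SE 0.17, adjusted p = 0.00988) with the 3 inhibitors, and Dut, which removes dUTP, by 1.09, 1.30 and 0.53.

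Of 37 other replication fork and origin factors, 13 fell (35.1%) and 1 rose (2.7%) with EPZ5676, and 19 fell (51.4%) and none rose with MI-2-2. With iBET 2 fell (5.41%) and 3 rose (8.11%), which is near the 7.54% and 6.38% of all genes. Timeless, of the fork protection complex, fell by 0.90 (SE 0.11, adjusted p = 0.00118) and 1.00 (SE 0.11, adjusted p = 0.000825) on the log2 scale with EPZ5676 and MI-2-2, and Rnaseh2c, a subunit of ribonuclease H2, rose by 0.74 with EPZ5676 while Rnaseh2a fell by 0.85. With iBET, Mcm9 (1.02, SE 0.16, adjusted p = 0.00903) and Donson (0.86, SE 0.12, adjusted p = 0.00666) rose. The median of this list was -0.30 with EPZ5676 and -0.54 with MI-2-2. The 19 genes of E2F factors, pocket proteins and G1/S cyclins had shares near those of all genes. With EPZ5676 4 rose and 4 fell (21.1% each, against 18.7% and 19.4% of all genes), and with MI-2-2 3 rose (15.8%, against 20.2%) and 5 fell (26.3%, against 21.2%). The medians were 0.05 and -0.19. Tfdp2, a partner of the E2F factors, fell by 1.01 (SE 0.14, adjusted p = 0.00185) and 1.04 (SE 0.14, adjusted p = 0.00155), and Cdc25a, a phosphatase that activates G1/S kinases, rose by 1.04 with EPZ5676 (SE 0.16, adjusted p = 0.00236) and fell by 0.76 with iBET (SE 0.16, adjusted p = 0.0204).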

How the data were processed

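RNA from MAF9 cells was sequenced in 10 libraries, 2 for each of 5 conditions named in the labels. The authors deposited 1 table of raw read counts per gene, with no normalization. The submitters' processing notes name TopHat2, Subread, DESeq and the build mm9. For versions, strand setting and annotation, the sources used here give nothing, and reads shared by near-identical or overlapping genes may have been split or lost. Totals of 20394762 to 29473127 reads per library set the precision.

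Genes were filtered with filterByExpr, scaled with TMM and tested with edgeR 4.0.16 (glmQLFit and glmQLFTest, R 4.3.3, limma 3.58.1), two-sided, with Benjamini-Hochberg adjustment over all genes tested and a threshold of 0.05. Comparisons with DMSO used all 10 libraries (12971 genes) and those between inhibitors the 8 inhibitor libraries (12836 genes). The standard error is the size of the log2 fold change divided by the square root of F. DESeq2 1.42.0, other scalings and filters, a replicate block, fits of 2 groups and fits without each library were run as alternatives. The code was tested on simulated data. Tables and plots used Python 3.11.15, pandas 2.3.3 and matplotlib 3.10.9.

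All 43 genes could be named, with fold changes for those called, and of the other lists at most the 3 called genes with the smallest adjusted p. The genes and lists were chosen with earlier results of these data known. Promoters are from RefSeq (GRCm38.p6), matched by symbol, and no coordinates of the counted genes were used.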

Additional observations from a re-analysis of the deposited data

How the results depend on the processing

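Against DMSO, no called gene turned its direction under any alternative run. For MM-401 the number of genes called was 0 to 3 when 1 library was left out, and the median log2 fold change ran from -0.1712 to 0.0674, turning sign without DMSO replicate 2. For EPZ5676 the count of 27 was 1 when only the libraries of the 2 conditions were fitted and 14 to 35 with 1 library left out. For MI-2-2 the count of 36 was 9 in the fit of the 2 conditions. For iBET the count of 2 was 0 without a filter, 0 in the fit of the 2 conditions, 8 with DESeq2 and 0 to 16 with 1 library left out, and the median ran from -0.3501 to -0.0288. Scaling by total counts moved the median of all genes to -0.23 with EPZ5676 and -0.20 with MI-2-2. Between inhibitors, EPZ5676 against MI-2-2 gave 2 genes with DESeq2. EPZ5676 against iBET gave 15 to 30 with 1 library left out and 16 in the fit of all 10 libraries, and EPZ5676 against MM-401 gave 19 to 34 with 1 library left out. For iBET against MM-401 the count of 6 was 3 with total counts, 3 with DESeq2 size factors, 3 without a filter, 0 with any 1 library left out and 0 in the fit of all 10 libraries. Libraries share replicate numbers, but nothing says what a number marks. Deviations of same-numbered libraries correlated at 0.28 to 0.67 over the 10 pairs of conditions, highest for EPZ5676 and MI-2-2, with only 2 numbers. With the replicate block, the counts were 5 for iBET against DMSO (23.8%) and 7 for EPZ5676 against MI-2-2 (6.67%). For iBET against MM-401 the count was 14 (40.4%). The causes were not tested. With 2 libraries a condition, and DMSO libraries that differ in origin markers, the spread of the controls limits each comparison with DMSO.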
